A study of Homo sapiens with 8 samples.

Results

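Molecular chaperones of H460 lung cancer cells were read on expression arrays as a set of 54 genes listed by name. They were 27 chaperones and cochaperones of the cytosol that heat shock factor 1 is known to drive or that work beside them, 6 subunits of the chaperonin TRiC, the heat shock factors HSF1 and HSF2, 15 genes of the endoplasmic reticulum (ER), and 4 mitochondrial chaperones. A probe was found under the accession of 53 of the 54 genes, and all 53 were tested among 20317 gene names. HSPA1B was not analysed here. H460 is an established cell line of non-small cell lung cancer. CSCs (H460C) were H460 cells that grew as spheres in defined serum-free media without attachment, and cisplatin-resistant cells (H460R) were H460 cells that outlived 72 h in 0.5 μg/mL of cisplatin and were then cultured without the drug. Parental H460 cells were the reference on every array. All 3 populations came from the same line, and the medium and the lack of attachment of H460C went with the population, so culture condition and cell type cannot be told apart.

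Heat shock proteins keep other proteins from aggregating and help them to fold. In the cytosol, unfolded proteins release HSF1 from chaperones, and HSF1 then binds heat shock elements in front of the genes for HSP70, HSP90, small heat shock proteins and their cochaperones. In the ER, the unfolded protein response senses unfolded secretory proteins, and its factors ATF6 and XBP1 raise the genes for BiP, GRP94, calreticulin, disulfide isomerases and parts of the degradation machinery. Mitochondria fold imported proteins with HSP70 and the HSP60 and HSP10 chaperonin. Tumor cells often hold high levels of HSP90, on which many kinases and receptors depend for their fold.

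For each of H460C and H460R, 2 RNA samples were set against H460 RNA, each on 2 arrays with the dyes swapped, which makes 8 arrays in all. A value below is the log2 ratio of studied cells over H460 cells, averaged over the dye-swapped pair, so that 0 stands for equal signal and 0.58 for about 1.5-fold. Between 22834 and 28499 of 41000 probes were well above background in a channel. The ratios of the H460C replicates differed from each other no more than the hybridizations did, with a correlation of the replicate difference between dyes of -0.01 across 24642 probes against 0.27 across 25745 probes in H460R. H460C values are therefore given by replicate with their mean but without an SD, whereas H460R values carry their SD (n = 2). Each population lay on a slide of its own, and slide and population cannot be told apart. The labels name a single H460 RNA, so the tests of both populations share it and leave out its own spread. The epithelial keratins KRT8, KRT18 and KRT19 were well above background in every channel, and EPCAM in 4 of 4 H460C, 3 of 4 H460R and 7 of 8 H460 channels. The leukocyte marker PTPRC was above background in 0 channels. Of 7 other markers of blood cells, endothelium and fibroblasts, CD14 and COL3A1 were above background in every channel, CD3E in 4, 4 and 6 channels, VWF in 3, 4 and 4, DCN in 1, 4 and 8, PECAM1 in 4, 0 and 0, and CDH5 in 0, 0 and 1 channels of H460C, H460R and H460. Their part in the chaperone values was not tested.

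The promoters of several members carry the elements through which these responses act, and 6 are shown here since the results below turn on these genes. The sequences are the 250 bases before the transcription start site from RefSeq (GRCh38.p14), written 5′ to 3′ on the strand of the gene. Capitals mark the heat shock element, searched as GAANNTTCNNGAA or TTCNNGAANNTTC, in the first 3, and the ER stress response element, searched as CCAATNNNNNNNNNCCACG or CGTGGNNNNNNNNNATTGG, in the last 3.
HSP90AA1, chr14:102087045-102087294, minus strand: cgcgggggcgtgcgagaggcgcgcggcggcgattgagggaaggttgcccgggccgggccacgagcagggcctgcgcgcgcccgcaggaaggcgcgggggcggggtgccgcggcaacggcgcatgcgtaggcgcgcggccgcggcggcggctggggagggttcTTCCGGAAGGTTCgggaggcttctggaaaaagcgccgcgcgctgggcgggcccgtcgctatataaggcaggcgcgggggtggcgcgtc
HSP90AB1, chr6:44247693-44247942, plus strand: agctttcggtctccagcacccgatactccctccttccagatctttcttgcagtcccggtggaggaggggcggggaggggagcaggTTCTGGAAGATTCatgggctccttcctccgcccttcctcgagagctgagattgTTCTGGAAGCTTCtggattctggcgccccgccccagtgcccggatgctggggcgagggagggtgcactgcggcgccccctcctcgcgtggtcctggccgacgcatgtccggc
HSPD1, chr2:197499841-197500090, minus strand: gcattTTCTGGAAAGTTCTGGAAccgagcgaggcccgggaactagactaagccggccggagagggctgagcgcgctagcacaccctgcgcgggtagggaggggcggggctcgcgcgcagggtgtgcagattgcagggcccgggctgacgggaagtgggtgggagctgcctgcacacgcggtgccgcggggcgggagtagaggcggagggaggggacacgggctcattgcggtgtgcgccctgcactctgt
HSPA5, chr9:125241344-125241593, minus strand: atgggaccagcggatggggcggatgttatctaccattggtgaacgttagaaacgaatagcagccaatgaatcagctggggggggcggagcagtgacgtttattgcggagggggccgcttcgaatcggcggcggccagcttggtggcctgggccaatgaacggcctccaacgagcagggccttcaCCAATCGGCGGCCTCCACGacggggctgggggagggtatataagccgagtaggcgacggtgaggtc
HSP90B1, chr12:103930160-103930409, plus strand: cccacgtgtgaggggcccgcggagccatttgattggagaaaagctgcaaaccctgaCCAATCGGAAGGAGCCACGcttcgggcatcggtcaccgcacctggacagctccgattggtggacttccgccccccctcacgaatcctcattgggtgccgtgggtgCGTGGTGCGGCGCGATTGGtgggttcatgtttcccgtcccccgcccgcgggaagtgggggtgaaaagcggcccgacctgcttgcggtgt
CALR, chr19:12938359-12938608, plus strand: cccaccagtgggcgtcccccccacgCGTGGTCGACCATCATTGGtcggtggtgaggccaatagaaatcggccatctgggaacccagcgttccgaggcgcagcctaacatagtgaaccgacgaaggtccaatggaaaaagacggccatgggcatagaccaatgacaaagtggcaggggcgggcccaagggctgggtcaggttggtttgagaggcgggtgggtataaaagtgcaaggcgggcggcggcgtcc
The 2 matches in HSPD1 overlapped each other and ran from 245 to 228 bases before the start. Of the members, 49 had a promoter in the table, in 67 windows, and CRYAB, PDIA3, HSF1, FKBP4 and HSPA14 had none. The heat shock element was matched in 155 of 35116 windows of this length (0.441%), and the members that held it were HSP90AA1, HSP90AB1, HSPA6, HSPA8 and DNAJB6 of the cytosol and HSPD1 of the mitochondrion. The ER element was matched in 26 windows (0.074%), and its 6 members, CALR, CANX, HSP90B1, HSPA5, PDIA6 and XBP1, were all ER genes. A match describes letters only and shows no binding. Only exact matches in these 250 bases were counted, so a missing match does not show that a gene lacks the element.

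The medians of the classes differed between the populations. In H460C, the median over the 26 tested cytosolic genes was 0.39, over the 6 TRiC subunits 0.02, over the 15 ER genes -0.17 and over the 4 mitochondrial genes 0.33, beside -0.00 over all gene names. In H460R, the same medians were 0.05, -0.28, -0.04 and 0.36, beside 0.01 over all names. By replicate, the medians were 0.39 and 0.40 for the cytosolic genes and -0.17 and -0.17 for the ER genes in H460C. In H460R they were 0.06 and 0.07 for the cytosolic genes, -0.07 and -0.01 for the ER genes, and further apart, at 0.19 and 0.46, for the mitochondrial genes. No p belongs to these medians, since they describe the chosen list. In whole-population RNA, fewer cells with a transcript and less transcript per cell cannot be told apart.

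**Figure D1:**
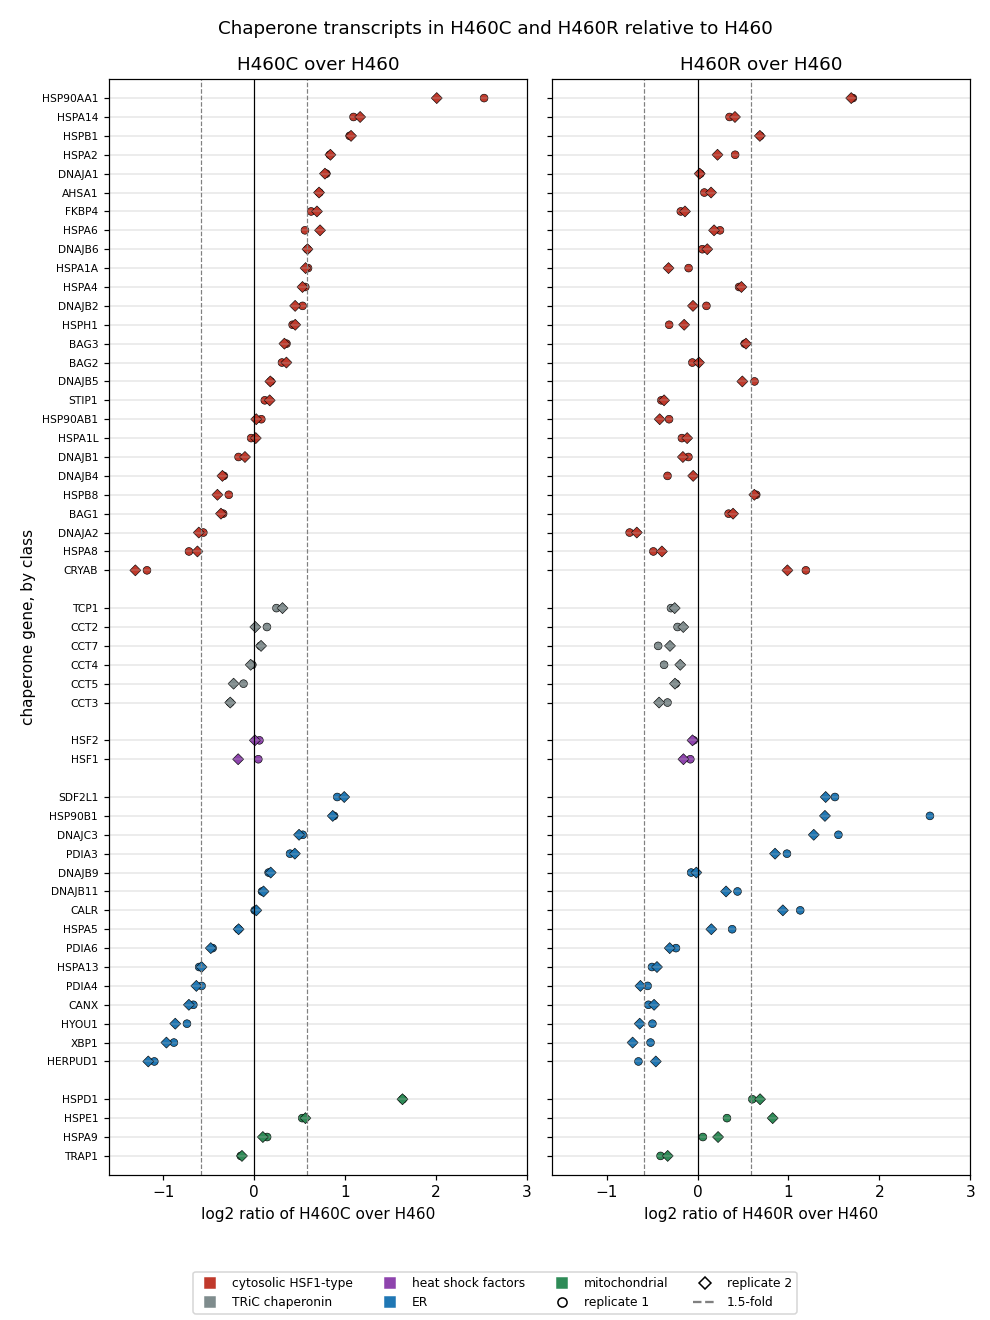
Log2 ratio over H460 of the 53 chaperone genes in H460C (left) and H460R (right), with a point for each RNA sample (circle, replicate 1; diamond, replicate 2), colored by class and sorted by the H460C mean within the class. HSP90AA1 heads both panels of the cytosolic genes, and CRYAB lies at -1.18 and -1.31 on the left and at 1.19 and 0.99 on the right.

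Calls were made by Rank Products at an FDR of 0.05, which picks only the extremes of all probes, and by limma with a minimum fold of 1.5, adjusted over all probes. In H460C, Rank Products called 1 member higher (HSP90AA1), where it called 0.556% of all names higher, and in H460R it called 2 members higher (HSP90AA1 and HSP90B1), where it called 0.502%. It called 0 members lower in either population, with 7 members in H460C and 6 in H460R at an unadjusted p under 0.05, where it called 0.502% and 0.477% of all names lower. With limma, 7 members rose by more than 1.5-fold in H460C (7.57% of all names) and 4 fell (5.76%). In H460R, 7 rose (5.83%) and 0 fell (3.33%), with DNAJA2 alone lower at an unadjusted p under 0.05. The called members made up 13.2% and 7.55% of the 53 in H460C and 13.2% and 0% in H460R, and the share that fell in H460C was near that of all names. HSP90AA1 and SDF2L1 were the 2 members higher in both populations.

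Among cytosolic HSP90 and its cochaperones, HSP90AA1 had the largest ratio of all members in H460C. HSP90AA1 encodes the stress-inducible HSP90α. Its log2 ratio was 2.53 and 2.01 in the H460C replicates, a mean of 2.27 or 4.81-fold (Rank Products with its exact distribution, FDR 0.0484, and limma, adjusted p = 0.000395). In H460R it was 1.71 and 1.69, or 1.70 ± 0.01 (SD, n = 2) and 3.25-fold (FDR 0.0496, limma adjusted p = 0.00265). Without either H460R replicate the limma call in H460R was lost, at adjusted p of 0.079 and 0.085. All 7 measured arrays were above 0, and the other array was missing because its spot was an outlier, so the second H460C value rests on a single dye. HSP90AB1, the constitutive HSP90β, was near 0 in H460C, at 0.08 and 0.02, and at -0.31 and -0.42 in H460R, and no call was made. Of its other probes, a dimmer probe read 0.73 and 0.67 in H460C and 0.68 and 0.59 in H460R, and the dimmest read -0.28 and -0.36 in H460C and -0.38 and -0.43 in H460R. The cochaperones AHSA1, which speeds the HSP90 ATPase, FKBP4, an immunophilin of steroid receptor complexes, and STIP1, which hands clients from HSP70 to HSP90, had means of 0.71, 0.66 and 0.14 in H460C and 0.11, -0.16 and -0.38 in H460R, with no call. All 5 genes of this group had means above 0 in H460C, with a median of 0.66, against 2 of 5 in H460R, with a median of -0.16. The sign of some of them depended on the dye. HSP90AB1 in H460C read 0.42 and 0.36 in Cy3 and -0.27 and -0.31 in Cy5. STIP1 in H460C read 0.40 and 0.52 in Cy3 and -0.175 and -0.179 in Cy5. AHSA1 was above 0 with either dye in H460C, but in H460R it read 0.56 and 0.58 in Cy3 and -0.41 and -0.28 in Cy5.

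Of 8 cytosolic HSP70 genes, HSPA14 and HSPA2 rose in H460C, and none was called in H460R at the probe read. HSPA14, a ribosome-associated HSP70, read 1.09 and 1.16 in H460C, or 2.18-fold (limma, adjusted p = 0.000557), and 0.35 and 0.41 in H460R. HSPA2, best known for its part in spermatogenesis, read 0.83 and 0.84 in H460C (limma, adjusted p = 0.0279) and 0.41 and 0.22 in H460R. The HSPA2 call was lost when either H460C replicate was left out (adjusted p of 0.094 and 0.136) and when the H460C replicates were counted as 1 sample (adjusted p = 0.1146). HSPA8, the constitutive HSC70, read -0.72 and -0.63 in H460C and -0.49 and -0.39 in H460R, and missed the threshold in both. Its other probes were brighter and saturated on some arrays. They had means of -0.30, -0.35 and -0.35 in H460C and -0.06, 0.18 and -0.17 in H460R, with no call. The direction of HSPA8 in H460R thus depended on the probe. HSPA1A, the inducible HSP70, read 0.59 and 0.56 in H460C and -0.10 and -0.32 in H460R at its brightest probe. In H460C its 2 dimmer probes had the opposite sign. They read -0.27 and -0.25, and -0.28 and -0.32, in H460C, and -0.81 and -1.19, and -0.93 and -1.20, in H460R, where both passed the test (limma, adjusted p = 0.033 and 0.00753). The other HSP70 genes (HSPA1L, HSPA4, HSPA6 and HSPH1) had means between -0.01 and 0.64 in H460C and between -0.23 and 0.47 in H460R, with no call. HSPA1A and HSPA1B are near-identical in sequence, and a probe may read both. The direction of HSPA1A in H460C is therefore uncertain.

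Of the 7 cytosolic J-domain proteins, which stimulate HSP70, DNAJA1 rose in H460C. It read 0.79 and 0.78 in H460C (limma, adjusted p = 0.0147) and 0.03 and 0.02 in H460R. A dimmer DNAJA1 probe read 0.64 and 0.65 in H460C, with no call (adjusted p = 0.507), and -0.24 and -0.24 in H460R. The DNAJA1 call was lost with the authors' processed table (limma, adjusted p = 0.113), median centring (0.095), the mean over probes (0.064) and the studied cells in Cy3 only. It was also lost without either H460C replicate and with them counted as 1 sample. DNAJB1, a main partner of HSP70 in the heat shock response, read -0.17 and -0.10 in H460C and -0.10 and -0.16 in H460R. DNAJA2 was the lowest cytosolic gene in H460R, at -0.75 and -0.67, with no call (limma, adjusted p = 0.156). DNAJB2, DNAJB4 and DNAJB5 had means of 0.49, -0.34 and 0.18 in H460C and 0.02, -0.19 and 0.56 in H460R. A dim probe of DNAJB6 fell in H460R, at -0.95 and -0.89 (limma, adjusted p = 0.00406), while the probe read for the gene was at 0.05 and 0.11. The 3 BAG cochaperones, nucleotide exchange factors of HSP70, lay between -0.35 and 0.34 in H460C and between -0.02 and 0.53 in H460R, and none was called.

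The small heat shock proteins, which hold unfolded proteins in a state fit for refolding, included CRYAB, the member with the largest difference between the populations. HSPB1 (HSP27) read 1.05 and 1.06 in H460C, or 2.08-fold (limma, adjusted p = 0.000593), and 0.69 and 0.69 in H460R (adjusted p = 0.183), and all 3 of its probes passed in H460C. CRYAB, αB-crystallin, read -1.18 and -1.31 in H460C, which is 2.37-fold lower than H460 (limma, adjusted p = 0.00118), and 1.19 and 0.99 in H460R, or 1.09 ± 0.14 (SD, n = 2) and 2.13-fold higher (adjusted p = 0.00484). The 4 arrays of H460C were all below 0 and the 4 arrays of H460R all above it. Without H460R replicate 1 the H460R call was lost (adjusted p = 0.057). HSPB8, a partner of BAG3, read -0.28 and -0.41 in H460C and 0.65 and 0.62 in H460R, with no call against H460.

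TRiC folds actin and tubulin. At the probes read, its subunits lay between -0.27 and 0.28 in H460C, with 3 of 6 above 0, and between -0.38 and -0.19 in H460R, with 6 of 6 below 0. TCP1 was the highest in H460C, at 0.24 and 0.31, and CCT3 the lowest, at -0.27 and -0.27. In H460R, CCT2 was the least low, at -0.22 and -0.16, and CCT3 the lowest, at -0.33 and -0.42. Neither test called any subunit (0 at an unadjusted p under 0.05 by Rank Products and limma). The range depended on the probe, since the brighter probes of TCP1 and CCT5, saturated on some arrays, read 0.78 and 0.67, and 0.36 and 0.35, in H460C and 0.26 and 0.50, and -0.13 and -0.02, in H460R. TCP1 thus lay above 0 in H460R at that probe. CCT2, CCT3 and CCT4 were read at probes saturated on some arrays. HSF1 read 0.04 and -0.18 in H460C and -0.08 and -0.16 in H460R, and HSF2 read 0.06 and 0.01 in H460C and -0.04 and -0.06 in H460R. Neither factor was called, and a transcript level does not show the activity of HSF1, which is set after translation.

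In the ER, 5 chaperones rose in H460R, while 3 genes of the unfolded protein response and its targets fell in H460C. Of all names, 5.83% rose in H460R and 5.76% fell in H460C. The 5 of 15 that rose in H460R were HSP90B1, SDF2L1, DNAJC3, CALR and PDIA3. HSP90B1 (GRP94), the HSP90 of the ER, read 2.56 and 1.40, or 1.98 ± 0.82 (SD, n = 2) and 3.94-fold (Rank Products with its exact distribution, FDR 0.0224, and limma, adjusted p = 0.018). These values depended on the dye. With H460R in Cy3 the arrays read 2.56 and 2.38, with H460R in Cy5 a single array was measured, at 0.43, and in H460C the arrays read 1.69 and 1.72 in Cy3 and 0.06 and 0.00 in Cy5. The first H460R value rests on Cy3 alone, so the SD sets a value of 1 dye against a mean over both. With outlier spots kept the mean was 1.497. The brighter probe of HSP90B1, saturated on some arrays, read 0.73 and 0.12 in H460R and -0.54 and -0.43 in H460C. The limma call in H460R was lost at this brighter probe and with the mean over probes (1.20, limma, adjusted p = 0.123). It was also lost with the studied cells in Cy5 only (-0.019). The part of dye and saturation in the HSP90B1 call was not tested.

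The other risen ER genes varied less between arrays than HSP90B1. DNAJC3 also split by dye in H460R, at 1.87 and 1.62 in Cy3 and 1.23 and 0.935 in Cy5. SDF2L1, a subunit of an ER chaperone complex, read 1.51 and 1.41 in H460R, or 2.75-fold (limma, adjusted p = 0.000335), and 0.91 and 0.99 in H460C, or 1.93-fold (adjusted p = 0.00325), at a probe saturated in the studied cells on 2 of 4 arrays of each population. DNAJC3 (p58IPK), a J-domain cochaperone of BiP, read 1.55 and 1.28 in H460R, or 1.41 ± 0.19 (SD, n = 2) and 2.67-fold (adjusted p = 0.00123), and 0.53 and 0.49 in H460C. CALR, calreticulin, a lectin chaperone for glycoproteins, read 1.13 and 0.94 in H460R, or 1.03 ± 0.13 (SD, n = 2) (adjusted p = 0.00456), and 0.00 and 0.02 in H460C. PDIA3 (ERp57), the disulfide isomerase that works with calreticulin, read 0.98 and 0.85 in H460R (adjusted p = 0.00781) and 0.39 and 0.45 in H460C. Its call was lost without H460R replicate 1 and with the studied cells in Cy5 only (0.71, limma, adjusted p = 0.588). In H460R a second PDIA3 probe, at 1.00 and 0.89, passed (adjusted p = 0.00466), and the dimmest, at 0.70 and 0.54, did not. The H460R values of these 4 genes were above 0 on 4 of 4 arrays.

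HSPA5, which encodes BiP and is the usual readout of ER stress, was not among them. It read 0.38 and 0.15 in H460R and -0.18 and -0.17 in H460C, and its second probe read -0.16 and -0.08 in H460R and -0.51 and -0.49 in H460C, with no call at either. In H460C, 3 of 15 ER genes fell, beside 5.76% of all names. HERPUD1, a factor of ER-associated degradation, read -1.10 and -1.17, which is 2.19-fold lower (limma, adjusted p = 0.00157). XBP1, a transcription factor of the response, read -0.88 and -0.97 (adjusted p = 0.0108), and HYOU1 (GRP170), an exchange factor of BiP, read -0.74 and -0.87 (adjusted p = 0.0412). In H460R the same genes read -0.65 and -0.46, -0.52 and -0.71, and -0.50 and -0.64, with no call at the probes read. A dimmer XBP1 probe passed in both populations, at -1.25 and -1.37 in H460C and -0.84 and -1.11 in H460R (adjusted p = 0.00144 and 0.0217). XBP1 lost its call with median centring (-0.82, limma, adjusted p = 0.323) and without H460C replicate 2 (-0.885). HYOU1 lost its call with median centring (-0.66) and with the studied cells in Cy3 only (-0.40). HYOU1 also lost it without H460C replicate 2 (-0.74), without either H460R replicate and with the H460C replicates counted as 1 sample. Between the populations none of the 3 passed the test, with differences of -0.58 for HERPUD1 (95% interval from -0.79 to -0.37), -0.31 for XBP1 and -0.24 for HYOU1. ER members without a call in H460C ranged from -0.69 (CANX) to 0.87 (HSP90B1). Among them PDIA4, a disulfide isomerase, and HSPA13, an ER-associated HSP70, were below 0 in both populations, at means of -0.61 and -0.59 in H460C and -0.59 and -0.47 in H460R.

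Of the members with a matched ER element before their start site, HSP90B1 and CALR rose in H460R and XBP1 fell in H460C. HSP90B1 and CALR had means of 0.87 and 0.01 in H460C, and XBP1 -0.62 in H460R, with no call at the probes read. A dimmer XBP1 probe passed in H460R. HSPA5, PDIA6 and CANX had means of 0.27, -0.27 and -0.51 in H460R with no call. Their means in H460C were -0.17, -0.47 and -0.695, also with no call. Of the members with a matched heat shock element, HSP90AA1 rose in both populations. HSPD1 rose in H460C and had a mean of 0.65 in H460R with no call. HSP90AB1, HSPA6, HSPA8 and DNAJB6 had means of 0.05, 0.64, -0.67 and 0.58 in H460C with no call. Their means in H460R were -0.36, 0.21, -0.44 and 0.08, with no call at the probes read.

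The mitochondrial chaperonin HSPD1 (HSP60) rose in H460C. It read 1.63 and 1.63, or 3.10-fold (limma, adjusted p = 8.1e-05), and 0.60 and 0.69 in H460R (adjusted p = 0.755). Its much brighter second probe was saturated in H460C on 4 of 4 arrays and read 0.26 and 0.23 in H460C and -0.11 and -0.41 in H460R, so the call rests on the dimmer probe. HSPE1 (HSP10), its partner, had a single probe, saturated on 4 of 4 arrays in H460C and on 3 of 4 in H460R, which read 0.53 and 0.56 in H460C and 0.32 and 0.83 in H460R. H460 itself was saturated at this probe on 1 of 4 arrays with H460C and 2 of 4 with H460R, and no call was made. HSPA9 (mortalin), the HSP70 of the matrix, read 0.14 and 0.09 in H460C and 0.06 and 0.23 in H460R, and TRAP1, the HSP90 of the matrix, -0.15 and -0.14 in H460C and -0.41 and -0.33 in H460R.

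**Figure D2:**
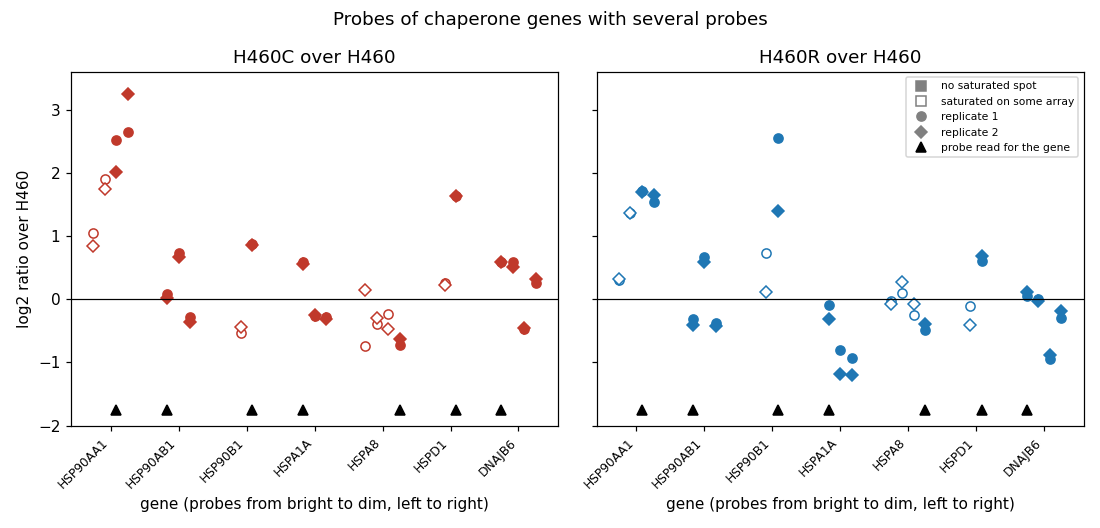
Log2 ratio over H460 of every tested probe of 7 chaperone genes in H460C (left) and H460R (right), with a circle and a diamond for replicates 1 and 2, open where the probe had a saturated spot on some array, and a triangle under the probe read for the gene. The saturated probes of HSP90AA1, HSP90B1 and HSPD1 lie below their unsaturated probes in both panels.

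Saturation touched 12 of 53 members at some probe and 5 at the probe read. For HSP90AA1, both saturated probes were above 0, at 1.05 and 0.85 and at 1.90 and 1.74 in H460C and at 0.31 and 0.32 and at 1.36 and 1.37 in H460R, and the second unsaturated probe read 2.64 and 3.25 in H460C and 1.53 and 1.65 in H460R. In the plot of probes, the brightest probe of HSP90AA1 had the lowest ratio in both populations. Whether the probes of HSP90AA1, HSP90B1 and HSPD1 also match other transcripts or pseudogenes was not tested, so the folds given are those of the probe read.

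**Figure D3:**
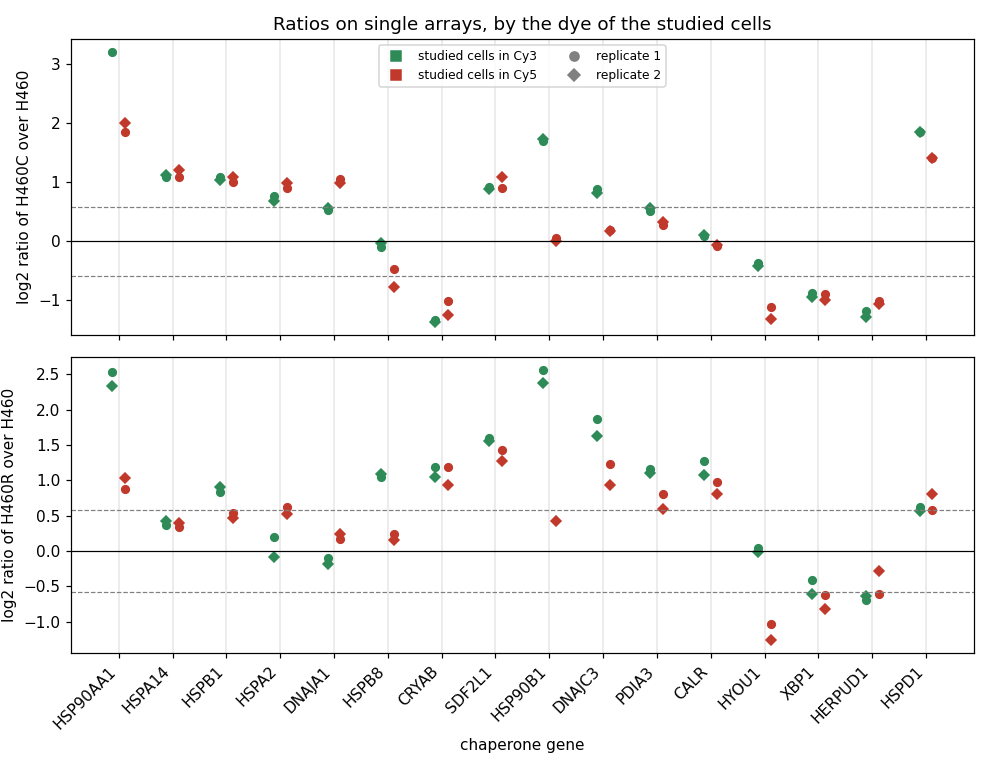
Log2 ratio over H460 on single arrays for the 16 chaperone genes past 1.5-fold in any comparison, H460C above and H460R below, green with the studied cells in Cy3 and red with the studied cells in Cy5. HSP90AA1, HSP90B1, DNAJC3, HSPB8 and HYOU1 split by dye, while CRYAB, HSPA14, HSPB1 and HERPUD1 in H460C keep close together.

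The split by dye was largest for HSP90B1 and HSP90AA1. HSP90AA1 in H460R read 2.54 and 2.34 in Cy3 and 0.88 and 1.04 in Cy5. HSPB8 in H460R read 1.04 and 1.096 in Cy3 and 0.25 and 0.16 in Cy5. HYOU1 in H460C read -0.38 and -0.43 in Cy3 and -1.11 and -1.31 in Cy5. CRYAB in H460C, by contrast, read -1.34 and -1.36 in Cy3 and -1.02 and -1.26 in Cy5, and in H460R 1.20 and 1.05 in Cy3 and 1.19 and 0.93 in Cy5.

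H460C and H460R were then set against each other, which cancels the shared H460 RNA. HSPD1 was higher in H460C (1 of 53 members, with 4.09% of all names higher), by 0.99 on the log2 scale with a 95% interval from 0.83 to 1.14 (limma, adjusted p = 0.00826). CRYAB, CALR and HSPB8 were lower in H460C (3 members, with 5.64% of all names lower). These are 1.89% of the members higher and 5.66% lower. The share lower was thus near that of all names, and the share higher was below it. The difference for CRYAB was -2.34, from -2.57 to -2.10 (adjusted p = 0.00028), for CALR -1.02, from -1.22 to -0.82 (adjusted p = 0.0176), and for HSPB8 -0.98, from -1.15 to -0.81 (adjusted p = 0.0131). HSPD1 lost its call with median centring (adjusted p = 0.368), at its brighter saturated probe (difference 0.50), with the mean over its probes (0.74, adjusted p = 0.189) and with the studied cells in Cy5 only (0.71). CALR lost its call with median centring (limma, adjusted p = 0.318), the studied cells in Cy5 only (0.093), a normexp offset of 0 (0.051) and without H460R replicate 1. HSPB8 lost its call with median centring (limma, adjusted p = 0.235) and with the studied cells in Cy5 only (0.596). It also lost the call without H460C replicate 2 or either H460R replicate. Among cytosolic genes FKBP4 had the highest difference, 0.82 from 0.67 to 0.97, just outside the threshold (adjusted p = 0.0531), and HSP90AA1 differed by 0.57, from 0.14 to 1.00, with no call. All 5 genes of the HSP90 group had positive differences, with a median of 0.57, as did all 6 TRiC subunits, with a median of 0.26, and 14 of 15 ER genes had negative ones, with a median of -0.31, beside 0.01 over all names. The exception in the ER was DNAJB9, at 0.16 and 0.18 in H460C and -0.07 and -0.01 in H460R.

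**Figure D4:**
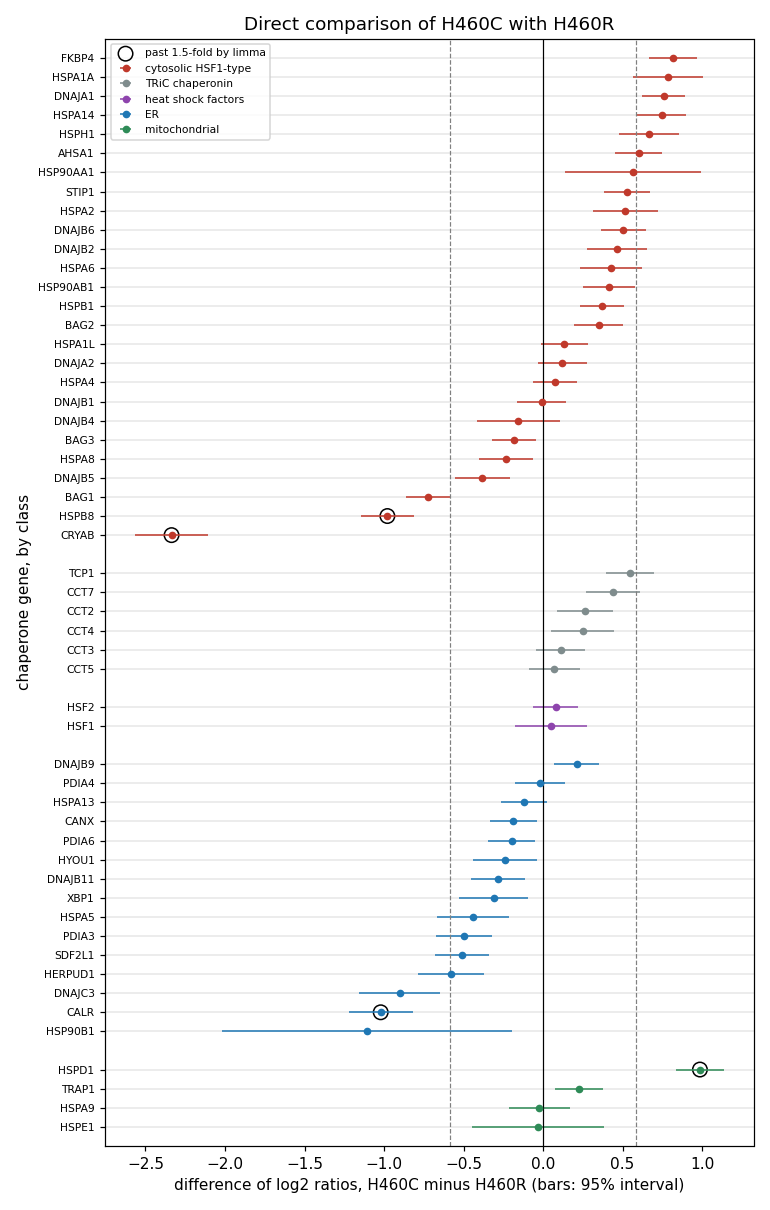
Difference of the log2 ratios, H460C minus H460R, for the 53 chaperone genes by class, with bars for the 95% interval of limma and a ring around the 4 genes past 1.5-fold. Most cytosolic and all TRiC genes lie right of 0 and 14 of 15 ER genes left of it.

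Other genes of the same pathways, 71 listed and 65 tested, were read in the same way. Of 25 further cytosolic genes, 5 rose in H460C and 0 fell (median 0.19). These are 20% and 0% of the list, beside 7.57% and 5.76% of all names. The 5 were CHORDC1 at 1.22 and 1.30, PPID at 1.22 and 1.24, FKBP5 at 1.06 and 1.29, CACYBP at 1.07 and 1.04 and PTGES3 (p23), a cochaperone of HSP90, at 0.76 and 0.98. Other HSP90 cochaperones of the list were below 0 in H460C without a call, with means of -0.34 for CDC37, -0.45 for UNC45A and -0.37 for TTC4. In H460R the 5 genes that rose in H460C read between -0.61 and 0.36. Of these, CHORDC1, PPID, FKBP5 and PTGES3 were higher in H460C when the populations were compared (limma, adjusted p = 0.00365, 0.000667, 0.0244 and 0.00324). In that comparison 16% of the list was higher and 0% lower, beside 4.09% and 5.64% of all names. HSPA4L, an HSP110-type exchange factor, was the 1 gene of this list that rose in H460R, at 0.80 and 1.22. This is 4% of the list, below the 5.83% of all names that rose.

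Of 27 further ER genes, 2 rose and 3 fell in H460C, or 7.41% and 11.1% beside 7.57% and 5.76% of all names, so the share that rose was near that of all names. In H460R, 3 rose and 0 fell, or 11.1% and 0% beside 5.83% and 3.33%. ERO1A, the oxidase that feeds disulfide isomerases and is also induced by hypoxia, read 1.85 and 1.59 in H460C, and DERL1, a channel protein of ER-associated degradation, 1.04 and 1.11. DDIT3 (CHOP), the death-linked factor of prolonged ER stress, read -1.29 and -1.64, DNAJC10 -0.97 and -0.97, and SEC61A1, of the translocon, -0.73 and -0.76. In H460R, SIL1, an exchange factor of BiP, read 1.11 and 1.00, WFS1 0.94 and 0.93, and SDF2, a relative of SDF2L1, 0.84 and 0.98. Between the populations ERO1A was higher and SIL1 and DNAJC10 lower in H460C. These are 3.7% and 7.41% of the list, beside 4.09% and 5.64% of all names, so both shares were near those of all names. Of 13 further mitochondrial genes, GRPEL1, the exchange factor of HSPA9, rose in both populations. It read 1.20 and 1.33 in H460C and 0.89 and 0.97 in H460R. This 1 gene is 7.69% of the list, near the 7.57% of all names that rose in H460C, and beside 5.83% in H460R. TIMM44, of the import motor, fell in H460R, at -0.93 and -1.07 (7.69%, beside 3.33% of all names). HSCB was lower in H460C than in H460R (7.69%, beside 5.64% of all names). Rank Products called 0 of the 65 genes in either population, with 14 in H460C and 12 in H460R at an unadjusted p under 0.05.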

How the data were processed

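RNA of 2 H460C and 2 H460R samples was measured against H460 RNA on 8 dual-color Agilent arrays. The authors scanned and extracted the arrays with Feature Extraction 10.1.1.1. The values used here are deposited, unnormalized median intensities of each spot and its surroundings, with the software's deposited 0 or 1 marks for saturated, outlier and well-above-background spots. The deposited log10 ratio of the same software and the authors' processed table of log2 ratios over H460, whose background correction and normalization are not given in the sources used here, served as alternatives. The log10 ratios of 1 array had lost their decimal points and were divided by 10 to the power of 9.

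Background was corrected with normexp (offset 50), outlier spots were left out, and log2 ratios were loess-normalized within arrays (limma 3.58.1, R 4.3.3). Averaging gave 41000 probes, of which 26046 passed a filter that asked for 0.5 or more of the spots above background throughout a population's channels, and 26014 were tested. A dye-swapped pair was averaged, and 6 members rest on a single array of 1 pair. Genes were named through the RefSeq table (GRCh38.p14; names only) and read at the brightest probe without a saturated spot, or else the brightest. The number of arrays limits the precision.

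Rank Products p-values were exact for small products of 2 ranks. The two-sided limma test asked for a minimum fold of 1.5 on 4 ratios (2 residual and 3.27 prior degrees of freedom). Both were adjusted by Benjamini-Hochberg over all probes and tested on simulated data. The H460C ratios entered as 2 samples. The design text calls the replicates biological, and p-values measure only the spread between these samples. For H460C this spread was no larger than that between hybridizations, so its p-values cannot be taken to measure a spread between cultures. The members, lists, tests and naming rule were chosen with earlier results of these data known. Values by replicate are given for called members, for a fixed set of main chaperones and for the extremes of each class. Of the other pathway genes, all past 1.5-fold are named, more than the rule's 4 per list, which was decided after their values were seen. The alternatives are given in the closing section. A marker gene of the fixed list is not reported here. Columns without a sample numbered 0.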

Additional observations from a re-analysis of the deposited data

Results flagged for a closer look

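Results with a difference between the populations under the same contrast over H460 were marked where limma called H460C minus H460R. These were HSPD1, 0.99 higher in H460C, HSPB8, with a difference of -0.98, CALR, with -1.02, and CRYAB, with -2.34. The H460C and H460R replicates of HSPB8 and CRYAB lay on opposite sides of 0, CALR was near 0 in H460C, and HSPD1 was above 0 in both. HSPD1 differed by 0.50 at its brighter, saturated probe, with no call.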

How the results depend on the processing

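With the main settings, 1 and 2 members were called higher by Rank Products in H460C and H460R, and limma called 7 higher and 4 lower in H460C, 7 higher and 0 lower in H460R, and 1 higher and 3 lower in H460C minus H460R. Rank Products called 0 members higher in H460C and 0 in H460R with the software's ratio, the brightest probe, the mean over probes and the studied cells in Cy5 only. It called 0 and 1 with no background subtraction and with a normexp offset of 0, 1 and 0 with the authors' table, and 1 and 1 with median centring, the stricter filter on dim probes and outlier spots kept, which was chosen after seeing the data. It called 0 lower under every alternative it was run with. Limma with no minimum fold called 25 higher and 17 lower in H460C, 20 and 23 in H460R and 22 and 17 in H460C minus H460R, and with a minimum fold of 2 it called 2 and 0, 1 and 0, and 0 and 1. Lower members numbered 2 in H460C with median centring, and in H460R 1 with the software's ratio and with the authors' table and 2 with the studied cells in Cy5 only and in Cy3 only. Members higher in H460C than in H460R numbered 3 with the software's ratio, the authors' table, no background subtraction and outlier spots kept, 2 with the stricter filter, the mean over probes and the studied cells in Cy3 only, and 0 with median centring, the brightest probe and the studied cells in Cy5 only. Lower members in that comparison numbered 1 with median centring and with the studied cells in Cy5 only. Without 1 replicate, limma called 5 to 8 higher and 2 to 4 lower in H460C, 4 to 7 higher in H460R, 1 higher in each case and 1 to 4 lower in H460C minus H460R. The 2 lower in H460C arose without H460C replicate 2, and the 4 higher in H460R and the 1 lower in H460C minus H460R without H460R replicate 1. With the H460C replicates averaged into 1 sample, 5 members were higher and 3 lower in H460C. The replicate block gave 2 higher and 4 lower in H460C minus H460R. The replicate numbers were not shown to pair the samples, with only 2 pairs and a correlation of the replicate deviations of 0.21 across 26014 probes. Among members that limma called, 1 value turned its sign (ratios near 0 without a call, such as those of CCT4 and HSF1 in H460C, also changed sign under some alternatives): HSP90B1 in H460R was -0.019 with the studied cells in Cy5 only, where its saturated probe was read because the other probe lacked an array. HSP90B1 in H460R ranged from -0.02 to 2.56 over the alternatives, and HSP90AA1 from 0.95 to 3.22 in H460C and from 0.31 to 2.18 in H460R. HSP90AA1 in H460C, SDF2L1 in H460R and CRYAB between the populations kept their limma call under each of their 20, 20 and 21 alternatives, and HSPA14, HSPB1, CRYAB, SDF2L1 and HERPUD1 in H460C and DNAJC3 and CALR in H460R under all but the minimum fold of 2. The cause of these changes was not tested. Saturation limits these results at the bright end, since 5 members were read at a probe saturated in some channel.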
